A study of Mus musculus with 6 samples.

Results

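The genes described here encode the subunits of the respiratory chain and of ATP synthase that are carried on nuclear chromosomes. They are the rows of the deposited gene table whose symbol begins with Nduf, Sdh, Uqcr, Cox or Atp5 followed by a subunit letter or number, with copies marked -ps left out. This gave 84 rows of 78275, with 83 different symbols because *Atp5po* is listed at a pair of gene identifiers. There were 36 rows for complex I, 4 for complex II, 8 for complex III, 17 for complex IV and 19 for complex V, when *Ndufa4* is counted in complex IV, where its protein sits. The symbol pattern leaves out a few subunits, *Cox4i1*, *Cyc1* and *Ndufab1* among them, which are described after the members.

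RNA was sequenced from CD4-CD8+ TCRβhigh T cells of 6 animals, 3 WT and 3 BIT, each giving 1 library, to ask whether the transcriptome of CD8 T cells differs between the genotypes. BIT mice are homozygous for an allele in which the *Psmb11* sequence, encoding the thymoproteasome subunit β5t, was placed at the translation start of *Psmb8*, which encodes the immunoproteasome subunit β5i, on a C57BL/6 background. WT mice carry the unchanged *Psmb8* gene. All mice were 9 to 10 weeks old and were labelled male. The samples are labelled as lymph nodes, whereas their protocol text also names spleens. The allele is in the germ line, so it was present in every cell type of the animals. The RNA was depleted of ribosomal RNA and was not selected for poly(A).

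The respiratory chain of the inner mitochondrial membrane passes electrons from NADH (complex I) and succinate (complex II) through ubiquinone, complex III and cytochrome c to complex IV, which reduces oxygen. Complexes I, III and IV pump protons, and the return of the protons through complex V, the ATP synthase, drives the making of ATP. Most subunits are encoded in the nucleus, whereas a small set is encoded in mitochondrial DNA, and complex II is encoded in the nucleus alone. T cells increase their mitochondrial mass when they are activated, and memory CD8 T cells are known for a high respiratory capacity.

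The libraries held between 37467678 and 52922675 estimated counts, of which the 84 rows took between 0.395% and 0.474%. *Psmb8* had between 8024 and 10790 counts in WT and between 59 and 73 in BIT libraries, while *Psmb11* had 0 in each WT and between 1226 and 1926 in BIT libraries. The summed level of 10 T cell and CD8 marker genes was between 5329 and 5875 CPM (counts scaled to the library total), and that of 4 CD4 T cell markers between 3.22 and 5.68, so the cells carried the markers of their label. The library of WT replicate 3 did not match its label, since *Xist* stood at 66626 counts and 4 genes of the Y chromosome at 0. In the other libraries *Xist* stood at between 2 and 125 counts, the most in BIT replicate 3, and the Y genes at between 8474 and 12329. In bulk RNA, fewer cells of a type and less RNA per cell cannot be told apart.

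Of the 84 rows, 76 had enough counts to be compared between the genotypes with limma-voom after quantile normalization, and none of them reached an adjusted p below 0.05 (Benjamini-Hochberg over 16105 genes). Over all genes tested, 22 did, which is 0.137%. The smallest adjusted p of a member was 0.526. At an unadjusted p below 0.05, 7 members were lower in BIT mice, against 4.32% of all genes tested, and 0 were higher, against 4.25%. The count of 7 was 1 without WT replicate 2 (2.57% of all genes), 1 without BIT replicate 3 (5.6% of all genes), 2 without BIT replicate 2 (1.89% of all genes) and 29 without WT replicate 3 (6.43% of all genes). The quasi-likelihood test of edgeR and DESeq2 also called 0 members, with 4 and 5 lower at an unadjusted p below 0.05, against 3.89% and 3.6% of all genes. The fitted log2 fold change, BIT over WT, was below 0 for 61 of the 76 members and for 47.7% of all genes tested. Its median was -0.16 over the members, a fold of 0.895, and 0.012 over all genes. The single values ran from -0.53 for *Atp5me* to 0.10 for *Atp5f1d*.

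This median moved with single libraries. It was -0.035 without WT replicate 2, when 44 members lay below 0, and -0.086 without BIT replicate 3, when 46 did. In the other direction, it was -0.25 without WT replicate 3, with 70 of 77 members below 0. WT replicate 2 was the library with the highest value for 61 of the 76 members, or 80.3%, and for 19.3% of all genes tested. BIT replicate 3 was the lowest for 62 members, or 81.6%, and for 18.7% of all genes. With each gene set relative to its own mean over the 6 libraries, the median member stood at 0.055, 0.32 and -0.13 on the log2 scale in the 3 WT libraries and at 0.038, -0.0049 and -0.25 in the BIT libraries. The genotypes overlapped, since WT replicate 3 lay below BIT replicates 1 and 2.

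**Figure D1:**
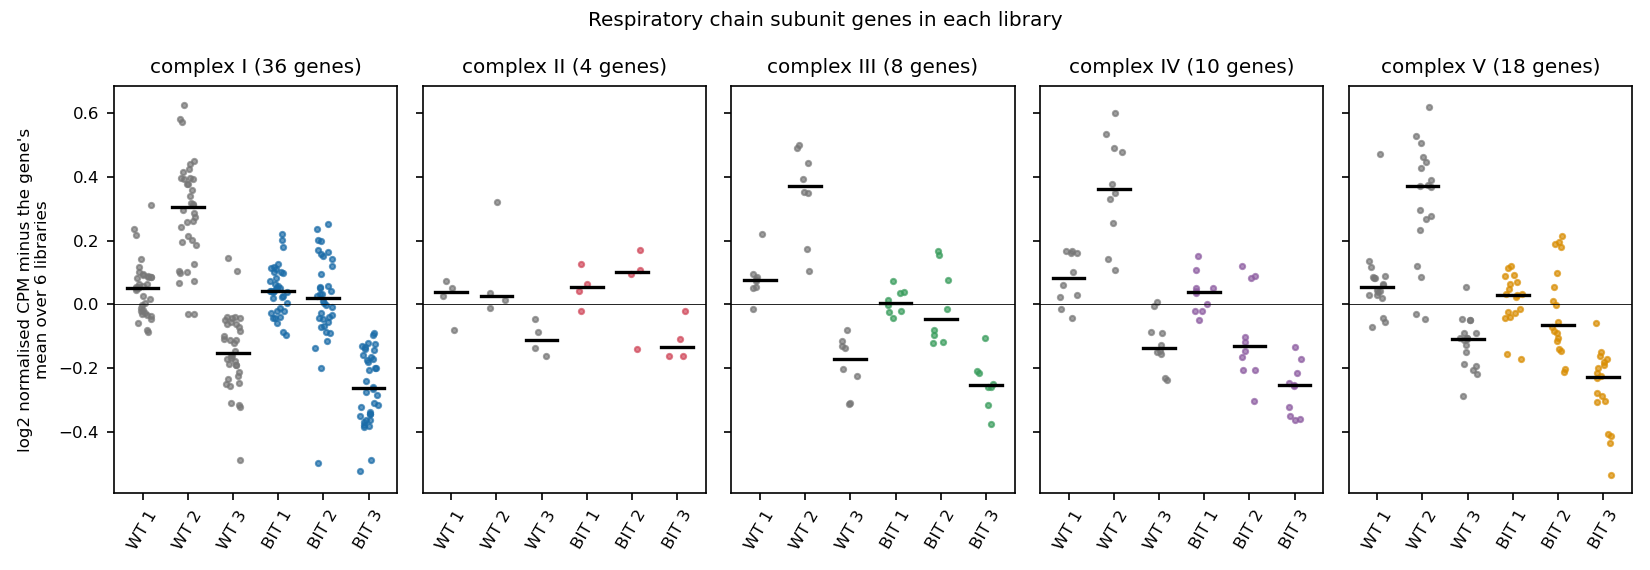
Log2 normalised CPM of each of the 76 members compared, minus the gene's mean over the 6 libraries, with 1 panel per complex, WT libraries in grey and BIT libraries in colour. Points are genes and bars their median: WT replicate 2 stands highest and BIT replicate 3 lowest in complexes I, III, IV and V. In complex II, BIT replicate 3 also has the lowest median but BIT replicate 2 the highest, and the 4 genes lie closer together.

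A list of B cell markers had its highest and its lowest sum in the same libraries as the members, while the libraries between them stood in another order. The summed level of the markers was 45.5 CPM in WT replicate 2, the highest, and 26.4 in BIT replicate 3, the lowest, with ranges between 32.3 and 45.5 in WT and between 26.4 and 34.7 in BIT libraries. All 7 B cell markers had a fitted fold change below 0, 0 of them with an adjusted p below 0.05, and each, *Ms4a1* included, was above 0 counts in every library. Myeloid markers summed to between 13.6 and 21.9 CPM in WT and between 9.84 and 13.9 in BIT libraries, with 7 of the 7 tested below 0 and none called, and *Siglech* was at 0 in the 3 BIT libraries. Red blood cell genes summed to between 1.80 and 15.7 CPM in WT and between 6.81 and 56.7 in BIT libraries, the highest in BIT replicate 2. The part of these cells in the levels of the members was not tested.

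The 7 members with an unadjusted p below 0.05 were spread over complexes I, IV and V. *Atp5if1* (chr4:132257215-132262823, GRCm39), the inhibitor that stops ATP synthase from running backwards and splitting ATP, had 19.2, 24.9 and 18.8 normalised CPM in the WT mice and 16.1, 16.4 and 14.8 in the BIT mice. Normalised CPM are CPM after quantile normalization of the libraries. Every BIT value was below every WT value, with a log2 fold change ± SE of -0.40 ± 0.13, an unadjusted p of 0.015 and an adjusted p of 0.526 by limma-voom. Its unadjusted p stayed below 0.05 under each of the 16 other settings of the test, whereas that of the other 6 members did so in 8 or 9 of them. These settings reuse the same libraries, and *Atp5if1* had the smallest unadjusted p of all members, so this is no separate support. *Ndufa13* (chr8:70346808-70355872), a supernumerary subunit of complex I also known as GRIM-19, had 32.1, 39.6 and 34.1 normalised CPM in WT and 30.4, 29.7 and 22.02 in BIT mice, again with no overlap (log2 fold change -0.37 ± 0.14, adjusted p = 0.547, limma-voom). *Ndufa7* (chr17:34043537-34057291), another supernumerary subunit, had 25.3, 32.4 and 19.4 in WT and 20.9, 18.98 and 16.96 in BIT mice. Here WT replicate 3 lay among the BIT mice and WT replicate 2 far above all (log2 fold change -0.42 ± 0.18, adjusted p = 0.575, limma-voom).

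A further 3 members of complex IV were among the 7. *Cox7c* (chr13:86189246-86195023) had 67.3, 83.5 and 56.3 normalised CPM in WT and 59.97, 48.7 and 50.3 in BIT mice, where WT replicate 3 fell within the BIT range. *Cox5b* (chr1:36730530-36734495), a zinc-binding subunit on the matrix side, had 61.01, 73.4 and 58.7 in WT and 56.5, 54.5 and 49.2 in BIT mice, and the groups did not overlap. *Cox6c* (chr15:35923634-35938392) had 90.2, 124 and 88.2 in WT and 87.2, 80.03 and 69.4 in BIT mice, without overlap by a narrow margin between WT replicate 3 and BIT replicate 1. Their log2 fold changes were -0.37 ± 0.15, -0.27 ± 0.11 and -0.34 ± 0.14 and their adjusted p 0.553, 0.557 and 0.562 by limma-voom. The last of the 7, *Atp5mk* (chr19:47071822-47079143), a small membrane subunit of ATP synthase also known as DAPIT, had 38.1, 53.3 and 32.2 in WT and 34.1, 29.97 and 26.1 in BIT mice, with WT replicate 3 inside the BIT range (log2 fold change -0.43 ± 0.18, adjusted p = 0.564, limma-voom). Without WT replicate 2 the log2 fold changes were -0.23 for *Cox7c*, -0.17 for *Cox5b*, -0.18 for *Cox6c*, -0.23 for *Atp5mk*, -0.24 for *Ndufa7* and -0.27 for *Atp5if1*, and without WT replicate 3 they were -0.51, -0.33, -0.43, -0.59, -0.60 and -0.47. That of *Ndufa13* was -0.22 without BIT replicate 3 and -0.45 without BIT replicate 1. Counts of *Cox7c* and *Cox5b* were not whole in most libraries. Those of *Cox6c* were not whole in WT replicate 2 and BIT replicate 1 alone, and those of *Atp5mk* in BIT replicate 1 alone. In these libraries reads shared with other copies were divided among genes, and the values carry that uncertainty. In all, 4 members had every BIT library below every WT library, against 5.96% of all genes tested, and 0 had every BIT library above, against 7.38%. The first number was 13 with CPM of the library total (6.69% of all genes), a scaling chosen after seeing the data. With 1 mouse left out, fewer libraries have to be separated. The number was then 34 without WT replicate 3 (14.8% of all genes) and 17 without BIT replicate 1 (10.4%). It was 5 without WT replicate 1 (9.72%) and 5 without BIT replicate 2 (8.48%). Without WT replicate 2 it was 4 (8.52%), and without BIT replicate 3 also 4 (13.5%).

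**Figure D2:**
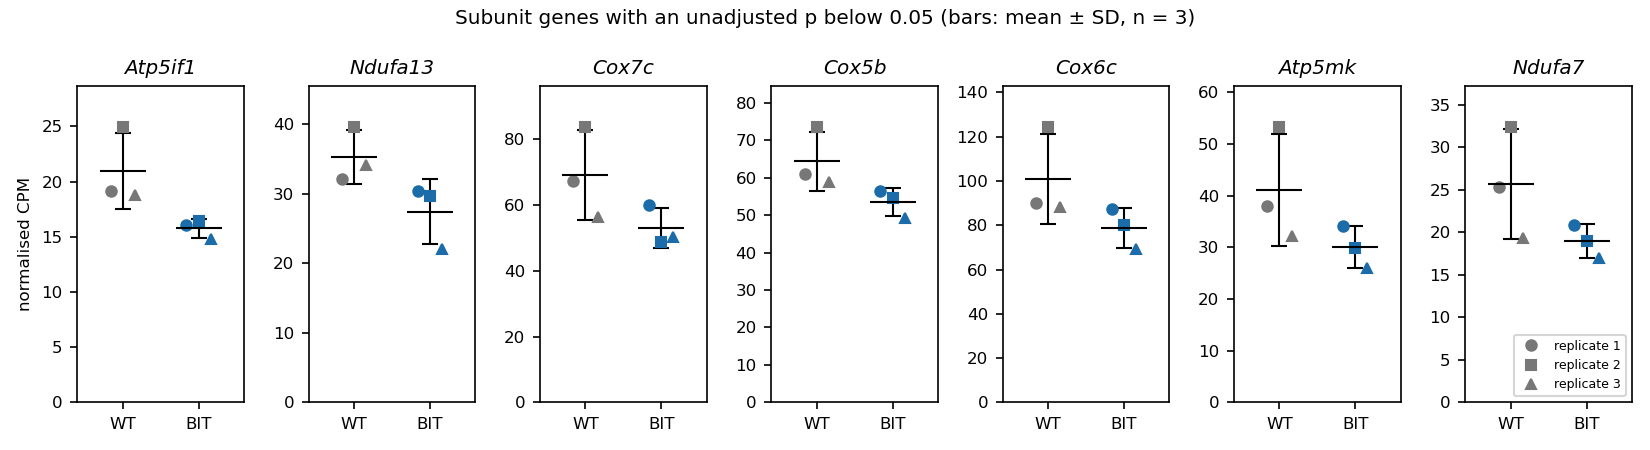
Normalised CPM of the 7 members with an unadjusted p below 0.05 in each mouse (symbols mark the replicate number) with mean ± SD (n = 3). WT replicate 2 is the highest mouse for all 7, and the groups overlap for *Cox7c*, *Atp5mk* and *Ndufa7*.

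In complex I, 28 of the 36 members had a log2 fold change below 0, with a median of -0.14 and 0 called. The 7 nuclear-encoded core subunits, which carry the flavin and the iron-sulfur clusters, had a median of -0.0061 and ran from -0.21 to 0.083. *Ndufv1*, which binds NADH and the flavin, had 36.1, 35.6 and 34.3 normalised CPM in WT and 37, 42.8 and 32.9 in BIT mice, and BIT replicates 2 and 3 were the highest and the lowest of all 6. Its log2 fold change of 0.083 ± 0.11 was the highest of the core subunits and, with the smallest unadjusted p among the complex I members above 0, 0.46, did not pass. For *Ndufs1*, the largest subunit, the values were 59.1, 64.3 and 57.99 in WT and 61.4, 60.2 and 55.9 in BIT mice, with -0.031 ± 0.083 as its log2 fold change. *Ndufs7*, which lies at the ubiquinone pocket, had a log2 fold change of 0.028 ± 0.12. *Ndufs3* had -0.0061 ± 0.11, and the iron-sulfur subunits *Ndufs8* and *Ndufv2* had -0.21 ± 0.17 and -0.20 ± 0.16, the lowest of the core. For *Ndufs8*, WT replicate 2 alone, at 32.3 normalised CPM, stood clear of the other libraries, which lay between 18.7 and 25.6. In BIT replicate 3, each of the 7 core subunits had its lowest value.

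The 29 supernumerary subunits, which surround the core and are needed to build and hold the complex, had a median of -0.16, with 24 below 0. Their values ran from -0.49 for *Ndufb4* to 0.048 for *Ndufc1*. *Ndufb4* had 12.3, 15.2 and 8.31 normalised CPM in WT and 9.90, 6.99 and 8.60 in BIT mice, so that WT replicate 3 lay below BIT replicates 1 and 3 (log2 fold change -0.49 ± 0.24, unadjusted p = 0.069, adjusted p = 0.63, limma-voom). Among the more abundant, *Ndufa10* had 82.4, 85.03 and 74.8 in WT and 85.7, 83.8 and 74.2 in BIT mice, and *Ndufa6* had 50.7, 62.1 and 49.6 and 53.6, 50.4 and 45.8. The fold changes of these 2 genes, 0.0083 ± 0.09 and -0.11 ± 0.11, were close to or below their errors. Of the members of complex I, 2 lie on the X chromosome. *Ndufa1* (chrX:36451241-36454849) had 28.04, 33.9 and 20.3 normalised CPM in WT and 27.6, 26.03 and 19.5 in BIT mice, and *Ndufb11* (chrX:20481563-20484457) had 35.6, 36.2 and 30.8 and 34.7, 34.4 and 28.1. For both, WT replicate 3, the library with by far the most *Xist* counts, was the lowest of the WT libraries, as it was for 70 of all 76 members.

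Complex II, succinate dehydrogenase, which is also an enzyme of the citric acid cycle, had a median log2 fold change of 0.035 and 3 of 4 above 0. *Sdha*, the flavoprotein that oxidises succinate, had 194, 188 and 184 normalised CPM in WT and 196, 203 and 176 in BIT mice, and the groups overlapped (log2 fold change 0.02 ± 0.081). The iron-sulfur subunit *Sdhb* had 37.2, 35.7 and 31.6 in WT and 38.6, 38.1 and 31.6 in BIT mice (0.049 ± 0.11). Of the membrane anchors, *Sdhc* had 35.8, 38.8 and 35.7 in WT and 37.3, 42.7 and 37.3 in BIT mice (0.086 ± 0.092), and *Sdhd* had 30.3, 36.4 and 26.6 and 30.5, 26.5 and 26.1 (-0.16 ± 0.13). *Sdhd* was the member of complex II with WT replicate 2 highest and BIT replicate 3 lowest, as for the medians of the other complexes. The adjusted p of the 4 genes was between 0.751 and 0.96 by limma-voom.

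Complex III moves electrons from ubiquinol to cytochrome c, and 7 of its 8 members had a log2 fold change below 0, with a median of -0.18 and 0 called. The core protein *Uqcrc1* had 86.7, 94.04 and 80.04 normalised CPM in WT and 86.2, 98.2 and 81.3 in BIT mice, and was the member above 0 (log2 fold change 0.025 ± 0.10). *Uqcrc2*, the other core protein, had 122, 147 and 99.9 in WT and 115, 114 and 99.2 in BIT mice, -0.16 ± 0.14. *Uqcrfs1*, the Rieske iron-sulfur protein, had 41.7, 45.4 and 36.7 and 40.7, 44.8 and 33.7, -0.06 ± 0.13. In none of these did the genotypes separate, since BIT replicate 2 or BIT replicate 1 lay within the WT range. The 5 small subunits had a median of -0.25 and were all below 0. *Uqcrh*, the hinge protein at the cytochrome c docking site, had the smallest unadjusted p, 0.064, with 112, 151 and 101 normalised CPM in WT and 105, 100.1 and 82.5 in BIT mice (log2 fold change -0.33 ± 0.15, adjusted p = 0.618, limma-voom). The *Uqcrh* values of WT replicate 3 and BIT replicates 1 and 2 lay within 100.1 to 105. WT replicates 1 and 2 lay above these and BIT replicate 3 below them.

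Complex IV, cytochrome c oxidase, had a median log2 fold change of -0.27 over the 10 members tested, the lowest of the 5 complexes, with 9 below 0 and 0 called. The exception was *Cox6a1*, with 54.8, 58.2 and 48.8 normalised CPM in WT and 59.9, 57.2 and 46.5 in BIT mice and a log2 fold change of 0.012 ± 0.12. *Ndufa4* had 36.8, 47.4 and 27.9 in WT and 33.9, 29.2 and 25.6 in BIT mice (-0.32 ± 0.19), where WT replicate 3 lay below BIT replicates 1 and 2. *Cox7b*, on the X chromosome (chrX:105055638-105066240), had 51.2, 69.4 and 38.8 and 47.1, 39.7 and 35.6 (-0.35 ± 0.20), and WT replicate 3 was lower than BIT replicates 1 and 2. *Cox6b1*, which faces the intermembrane space near the cytochrome c site, had 104, 134 and 94.6 and 109, 112 and 84.2 (-0.12 ± 0.15). The remaining tested members, *Cox5a*, *Cox7a2* and *Cox8a*, had log2 fold changes of -0.0089 ± 0.11, -0.26 ± 0.14 and -0.16 ± 0.12.

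Several subunits of complex IV exist in a widely expressed form and in forms restricted to muscle, testis or other tissues, and the restricted forms were nearly absent. *Cox6a2*, the heart and skeletal muscle form, had 0, 0 and 1 counts in WT and 0, 0 and 2 in BIT libraries, whereas *Cox6a1* had between 1823 and 2899. *Cox7a1*, also a muscle form, had 2, 2 and 1 counts in WT and 2, 6 and 0 in BIT libraries, and *Cox7a2* between 922 and 1721. *Cox6b2*, a testis form, had 12, 6 and 2 counts in WT and 1, 5 and 12 in BIT libraries. *Cox7b2*, *Cox8b* and *Cox8c* had 0 counts in each library, and a count of 0 allows up to 3 counts, or between 0.0567 and 0.0801 CPM by counting error alone, while *Cox8a* stood at a mean of 71.5 normalised CPM. *Cox6c2*, annotated as a processed pseudogene, had at most 1.05 counts. These 7 genes and the second listing of *Atp5po*, at 0 counts in each library, are the 8 rows that were not compared. None of the restricted forms was seen at a level where the genotypes could be compared.

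**Figure D3:**
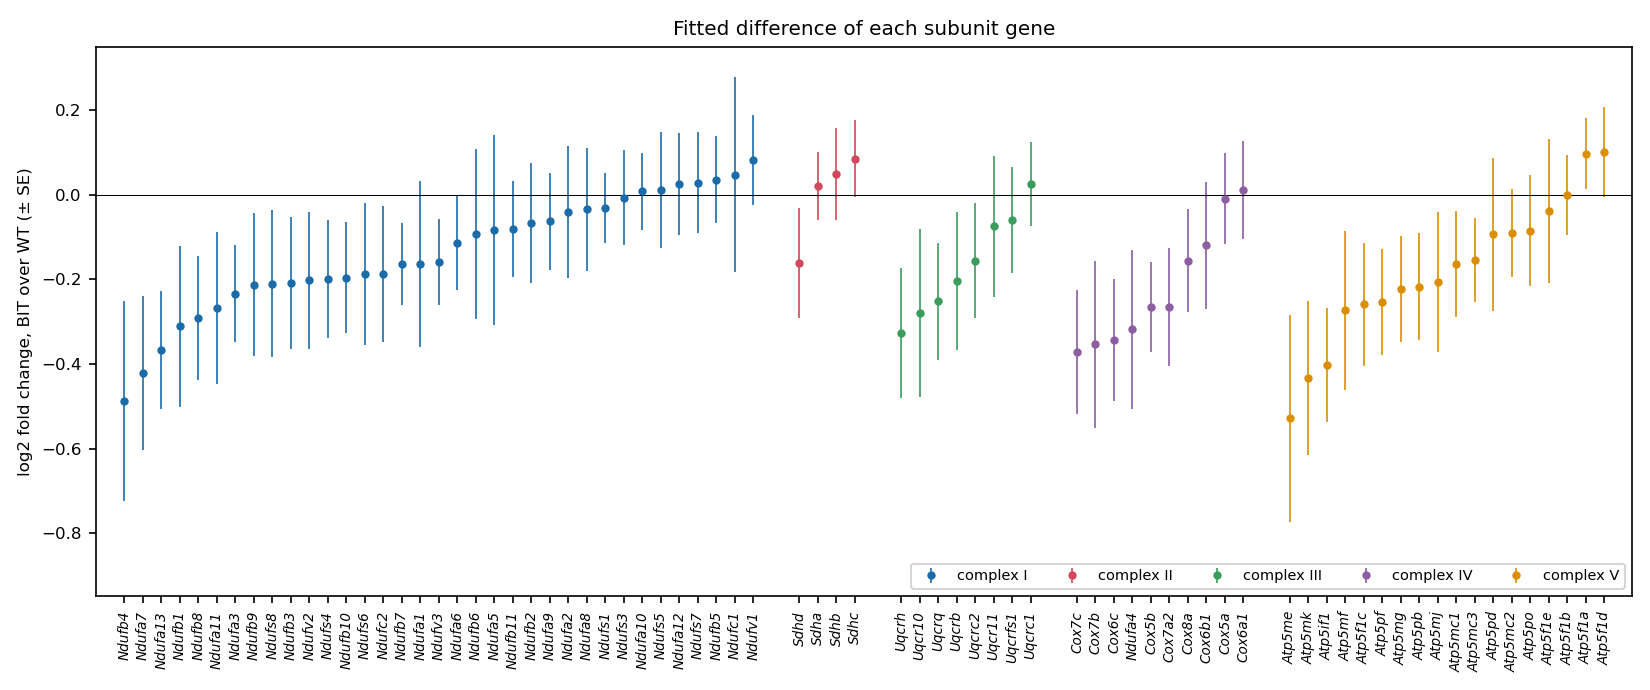
Log2 fold change, BIT over WT, with its SE for 75 members by complex, sorted within the complex. Of the points 61 lie below 0, 3 of the 4 in complex II lie above, and *Atp5me* and *Ndufb4* lie lowest.

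In complex V, 16 of the 18 members tested were below 0, with a median of -0.18 and 0 called. The F1 head, which makes ATP, lay near 0, with a median of -0.00026 over its 5 genes. Its α subunit *Atp5f1a* had 406, 418 and 413 normalised CPM in WT and 433, 483 and 409.9 in BIT mice, where the WT mice were close together and BIT replicate 2 stood above them (log2 fold change 0.10 ± 0.084, the smallest unadjusted p of a complex V member above 0, 0.28). The catalytic β subunit *Atp5f1b* had 449, 469.9 and 410.4 in WT and 457, 474 and 399 in BIT mice, with means ± SD of 443 ± 30.2 and 443 ± 39.4 (n = 3 each). The rotor subunit *Atp5f1c* had 138, 176 and 119.5 and 133, 121 and 106 (-0.26 ± 0.14), with WT replicate 2 far above the rest. *Atp5f1d* had 101, 102 and 102 and 114, 122 and 93.2 (0.10 ± 0.11), and its 3 WT values differed by less than 1 normalised CPM. *Atp5f1e*, with the shortest coding region of all members, had 25.2, 30.2 and 20.1 and 25.7, 27.98 and 19.9 (-0.037 ± 0.17).

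The stalk subunits that hold the head still, *Atp5pb*, *Atp5pd*, *Atp5pf* and *Atp5po*, had log2 fold changes between -0.25 and -0.085. The 5 small membrane subunits, which help ATP synthase to form rows of dimers, had a median of -0.27. Among them, *Atp5me* had the lowest log2 fold change of all members, with 6.58, 6.75 and 4.09 normalised CPM in WT and 4.27, 4.53 and 3.28 in BIT mice (-0.53 ± 0.24, unadjusted p = 0.06, adjusted p = 0.611, limma-voom). It was also the member with the lowest normalised CPM, and WT replicate 3 lay among the BIT mice. *Atp5mg*, its neighbour in the membrane, had 60.8, 78.05 and 55.9 and 57.8, 55.9 and 51.8 (-0.22 ± 0.13).

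Subunit c, which forms the turning ring of ATP synthase, is encoded by *Atp5mc1*, *Atp5mc2* and *Atp5mc3*. The 3 genes give the same mature protein and differ in the sequence that directs it to mitochondria, and their sequences are shown because the reads of 3 such like genes have to be told apart. Their last 120 coding bases, stop codon included, are shown 5′ to 3′ from GRCm39 (*Atp5mc1*, chr11:95963930-95964353; *Atp5mc2*, chr15:102571449-102573493; *Atp5mc3*, chr2:73738937-73739532, all on the minus strand and each across 1 intron), with capitals at the 31 positions where they are not all alike.
Atp5mc1: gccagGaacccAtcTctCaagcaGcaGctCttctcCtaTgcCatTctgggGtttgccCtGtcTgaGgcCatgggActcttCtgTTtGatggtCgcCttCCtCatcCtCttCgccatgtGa
Atp5mc2: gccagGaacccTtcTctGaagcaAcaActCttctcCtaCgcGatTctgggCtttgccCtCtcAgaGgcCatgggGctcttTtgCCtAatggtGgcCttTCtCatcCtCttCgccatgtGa
Atp5mc3: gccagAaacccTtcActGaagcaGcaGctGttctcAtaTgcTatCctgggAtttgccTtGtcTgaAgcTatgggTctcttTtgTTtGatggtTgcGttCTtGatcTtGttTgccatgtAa
In this stretch *Atp5mc1* and *Atp5mc2* share 86.7% of the bases, *Atp5mc1* and *Atp5mc3* 81.7%, and *Atp5mc2* and *Atp5mc3* 76.7%. The longest run that a pair shares in the whole coding sequence was 21 bases, in *Atp5mc1* and *Atp5mc2*.

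*Atp5mc2* supplied the largest share of the subunit c transcripts in both genotypes. Per kilobase of the canonical transcript, its share of the 3 genes' summed counts was 49.99%, 46.4% and 48.3% in WT and 50.7%, 48.5% and 49.8% in BIT libraries, with means ± SD of 48.2% ± 1.79 and 49.7% ± 1.11 (n = 3 each). *Atp5mc1* had shares of 24.8%, 26.6% and 24.7% in WT and 25.1%, 24.2% and 24% in BIT libraries, and *Atp5mc3* of 25.2%, 26.98% and 27.02% in WT and 24.3%, 27.3% and 26.2% in BIT libraries. The shares overlapped between the genotypes for all 3 genes, with differences of -0.93, 1.42 and -0.49 percentage points. In two-sided exact permutation tests over the 6 libraries, p was 0.3, 0.4 and 0.7 in the same order (0.6, 0.6 and 0.7 after Benjamini-Hochberg adjustment over the 3), in a design that cannot go below 0.1.

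The fold changes of the members differed with the length of their coding region. The 17 members of up to 300 nt had a median log2 fold change of -0.25, the 26 of over 300 to 450 nt -0.19, the 13 of over 450 to 600 nt -0.16 and the 8 of over 600 to 900 nt -0.14. The 12 longer members, *Ndufs1*, *Sdha*, *Atp5f1a* and *Atp5f1b* among them, had a median of 0.004, with 6 below 0. Across the 76 members, Spearman's rho of fold change and coding length was 0.461 and Pearson's r with log2 length 0.478. These are correlations across genes measured in the same 6 libraries and not across independent replicates.

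Other protein-coding genes of up to 900 nt also had medians below 0, of smaller size than those of the members. The medians of the genes that are not members were -0.10, -0.11, -0.054 and -0.024 in the same 4 ranges of length, 0.04 at over 1500 to 3000 nt and 0.034 above that, and rho over all 11319 protein-coding genes was 0.176. In all 210 tested protein-coding genes of up to 300 nt, members included, the median relative to each gene's own mean was 0.26 in WT replicate 2 and -0.21 in BIT replicate 3 on the log2 scale, the highest and the lowest of the 6. In those of over 3000 nt it was -0.11 and 0.085, the lowest and the highest. Among members of up to 300 nt, it was 0.45 and -0.32. The complexes also differed in length, with a median coding region of 444, 676.5, 300, 331.5 and 429 nt for the tested members of complexes I to V. The part of length in the differences between complexes and in the lower values of the short subunit genes was not tested.

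**Figure D4:**
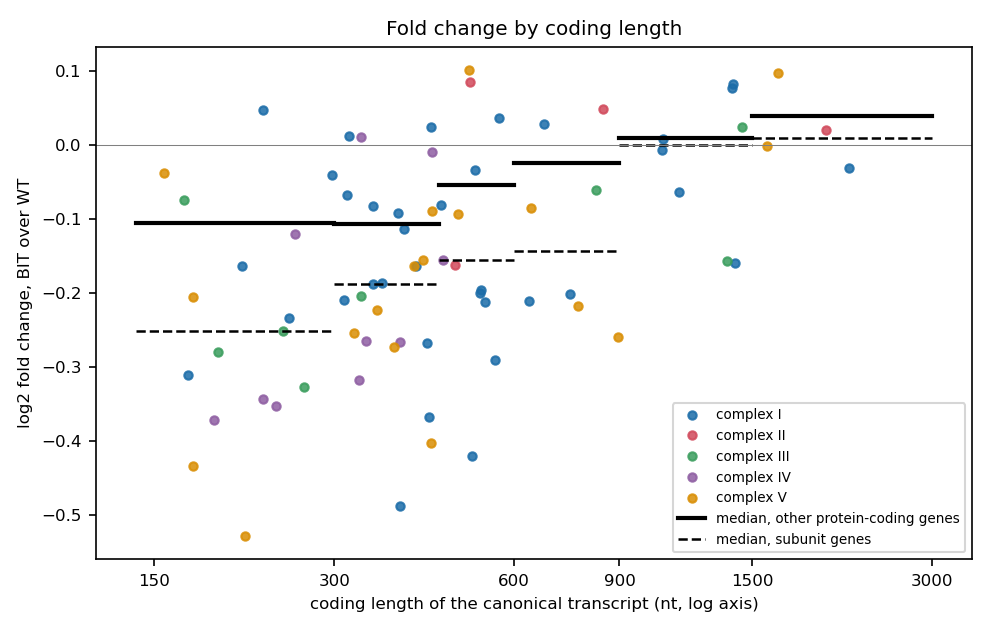
Log2 fold change, BIT over WT, of each member against the coding length of its canonical transcript (log axis), coloured by complex. Dashed lines are medians of members and solid lines medians of the other protein-coding genes in each range of length: in genes of up to 300 nt the members lie at -0.25 and the other genes at -0.10, and both lie near 0 at over 900 to 1500 nt.

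The levels of the members ranged widely within each complex although the proteins are needed in fixed ratios. Per kilobase of canonical transcript, normalised CPM (mean of the 6 libraries) ran from 3.17 for *Ndufb2* to 230.1 for *Atp5f1b*. Within complex I the highest was *Ndufa6* at 88.2 per kilobase, within complex II *Sdha* at 61.9 and *Sdhb* lowest at 8.80. Complex III ran from *Uqcr11* at 8.16 to *Uqcrb* at 96.5, complex IV from *Cox7a2* at 34.8 to *Cox6c* at 179, and complex V from *Atp5mj* at 8.82. These levels depend on the length used. With the union of all annotated exons, *Atp5f1a* and *Atp5f1b* were highest, at 96.4 and 95.8, *Ndufb2* was again lowest at 1.21, and *Cox6c* went to 9.55.

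Many genes of the respiratory chain are known targets of NRF1, of ETS factors such as GABPA and of YY1, and the RefSeq promoter windows of the members were searched for a short word of each. Windows of 300 bases, from 250 before to 50 after the annotated start in GRCm38.p6, were matched by symbol or older symbol for 63 of the 76 members. The words were GCATGCGC for NRF1, CCGGAAG for ETS factors and AAGATGGC for YY1, on both strands. The NRF1 word was in 10 members (15.9%) and in 6.17% of the 9733 tested genes with a window, the ETS word in 16 (25.4%) and in 21.1%, and the YY1 word in 10 (15.9%) and in 5.64%. Of all 27025 symbols with a window, 3.05%, 9.93% and 3.19% held them, and the ETS and YY1 words can overlap in 3 letters. A match is a description of letters, not of binding. The 120 bases before the start are shown 5′ to 3′ for the member with the lowest fold change, *Atp5me*, for *Atp5mc2*, the most abundant subunit c gene, and for *Uqcrh*, the member of complex III with the smallest p, with the words in capitals and coordinates in GRCm38.p6.
Atp5me (chr5:108434400-108434519, minus strand): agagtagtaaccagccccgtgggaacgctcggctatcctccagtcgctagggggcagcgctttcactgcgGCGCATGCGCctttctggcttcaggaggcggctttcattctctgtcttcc
Atp5mc2 (chr15:102671048-102671167, minus strand): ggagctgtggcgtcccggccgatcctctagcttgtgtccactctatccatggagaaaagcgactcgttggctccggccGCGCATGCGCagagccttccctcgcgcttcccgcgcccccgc
Uqcrh (chr4:116075071-116075190, minus strand): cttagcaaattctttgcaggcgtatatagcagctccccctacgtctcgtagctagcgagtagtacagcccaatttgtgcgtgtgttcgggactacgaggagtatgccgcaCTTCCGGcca
In *Atp5me* and *Atp5mc2* the NRF1 word and its reverse complement overlap in a run of 10 bases.

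Genes that work beside the members were also compared, and none was called. Of the subunits outside the symbol pattern, 6 of 8 were tested, with 0 at an unadjusted p below 0.05 in either direction. *Cox4i1*, the largest nuclear-encoded subunit of complex IV, had 143, 174 and 134 normalised CPM in WT and 137, 138 and 108 in BIT mice (-0.23 ± 0.13), and its tissue-restricted partner *Cox4i2* had at most 1 count in a library. Cytochrome c (*Cycs*), cytochrome c1 (*Cyc1*) and the acyl carrier protein of complex I (*Ndufab1*) had log2 fold changes of -0.086 ± 0.12, -0.074 ± 0.13 and -0.084 ± 0.11.

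Of 61 assembly factors of the 5 complexes, all tested, none had an adjusted p below 0.05, 1 was higher and 1 lower at an unadjusted p below 0.05, and the median log2 fold change was -0.046. *Surf1*, needed for building complex IV, had 18.9, 19.7 and 18.9 normalised CPM in WT and 23.9, 25.2 and 21.9 in BIT mice, so that every BIT value was above every WT value (log2 fold change 0.30 ± 0.10, unadjusted p = 0.012, adjusted p = 0.508, limma-voom). *Pet117*, another complex IV factor, had 93.82, 58.72 and 15.89 counts in WT and 0, 0 and 51.91 in BIT libraries, estimated counts that were not whole and overlapped between the genotypes (adjusted p = 0.548, limma-voom). In the other lists, the genes with the smallest p in each direction were *Dmac2* (-0.15 ± 0.089) and *Acad9* (0.13 ± 0.11) for complex I, *Uqcc2* (-0.51 ± 0.26) and *Bcs1l* (0.22 ± 0.15), which inserts the Rieske protein, for complex III, *Sdhaf2* (-0.075 ± 0.09) for complex II, and *Tmem242* (-0.21 ± 0.13) and *Atpaf2* (0.087 ± 0.11) for complex V. None of these had an unadjusted p below 0.05. Among 15 regulators of respiratory genes, 14 were tested and none passed. The smallest p of a regulator above 0 was that of *Pprc1*, a coactivator of the PGC-1 family, with 126, 113 and 99.4 normalised CPM in WT and 129, 132 and 129 in BIT mice (0.21 ± 0.10, adjusted p = 0.599, limma-voom), and of one below 0 that of *Ppargc1b* (-0.13 ± 0.15). *Nrf1*, *Gabpa*, *Yy1* and *Tfam* had log2 fold changes of 0.056 ± 0.087, 0.0038 ± 0.072, -0.041 ± 0.076 and 0.10 ± 0.13.

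The nuclear-encoded subunits were set against the 13 subunits encoded in mitochondrial DNA within the same library. The 13 mitochondrial genes had 6.57, 8.71 and 7.22 times the summed counts of the 84 rows in WT libraries and 4.64, 2.71 and 7.23 times in BIT libraries. BIT replicate 3 thus lay among the WT mice and BIT replicate 2 far below them, and the mean difference in log2 nuclear to mitochondrial counts was 0.73, with means ± SD of -2.90 ± 0.21 in WT and -2.17 ± 0.71 in BIT mice (n = 3 each). Without BIT replicate 2 this difference was 0.36. After quantile normalization, all 13 mitochondrial genes had a log2 fold change below 0, with a median of -0.76 and 0 called by limma-voom. At an unadjusted p below 0.05 in the same test 10 were lower, against 4.32% of all genes tested. For the one with the most counts, *mt-Co1*, the log2 fold change was -0.015 ± 0.29. Quantile normalization sets a value by the gene's rank in its library, so among the top genes it need not follow the counts. *mt-Co1* had 766323, 1014220 and 583034 counts in WT and 455936, 265897 and 581693 in BIT libraries. Its normalised CPM were 14838, 14838 and 12504 in WT and 12504, 9056 and 23367 in BIT libraries.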

How the data were processed

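The 6 libraries (3 WT, 3 BIT) were grouped by their sample labels. The authors trimmed reads with Cutadapt 1.18, aligned them with STAR 2.7.0f and counted them with RSEM 1.3.1 (versions from the submitters' processing notes) on GRCm39 and Gencode M38. Estimated counts of each gene were deposited, in which reads that match several genes are divided, and they are not normalised. They were rounded. Positions and lengths are from Gencode M39 on GRCm39.

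Genes kept by filterByExpr of edgeR 4.0.16 were compared by limma-voom (limma 3.58.1 in R 4.3.3, quantile-normalised, with lmFit and eBayes), with Benjamini-Hochberg adjustment over 16105 genes and calls at an adjusted p below 0.05, after a check on simulated data. DESeq2 1.42.0 was an alternative. The p-values measure the spread between these mice. CPM are relative to the library total, and normalised CPM and fold changes to a common distribution over the libraries, so a shift of most genes would not be seen. The limits given for genes without counts cover counting error only, whereas SE and SD include the spread between mice.

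Genes named are members or neighbouring genes with an adjusted p below 0.05, those with the smallest p in each direction per complex, assembly list or among the regulators, the highest and lowest per kilobase per complex, all members not tested, complex II, the core and F1 subunits, subunit c genes, tissue forms and members on the X chromosome. The other genes named, such as the rest of the 7 with an unadjusted p below 0.05, Ndufa10, Ndufb4, Ndufc1, Cox5a, Atp5me, Atp5mg, the stalk subunits, Nrf1, Gabpa, Yy1 and Tfam, were chosen after their values were seen. Members, lists and rules were chosen with earlier results of these data known. Sums over members got no p-value, although an exact permutation test of the nuclear to mitochondrial ratio had been planned. The values of 1 core subunit gene of complex I are not reported here, and its point is left out of the plot of fold changes; counts and medians include it.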

Additional observations from a re-analysis of the deposited data

How the results depend on the processing

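No member was called under the 16 other settings of the test or at an adjusted p below 0.1 or 0.01. The median log2 fold change of the members was below 0 in each setting, between -0.13 and -0.16 with other tools, scalings, filters and weights, -0.17 in replicates 1 and 2 alone, and between -0.25 and -0.035 with 1 mouse left out. The number of members lower at an unadjusted p below 0.05, 7 in the test described, was 3 with TMM normalization, 2 with DESeq2 size factors in limma-voom, 4 with edgeR, 21 with replicate 3 as a batch, 17 in replicates 1 and 2 alone, and between 1 and 29 with 1 mouse left out. Of all genes, 4.32% were lower in the test described, and 4.64%, 4.55%, 3.89%, 7.54%, 7.65% and between 1.89% and 6.43% in the same order of settings. The cause was not tested. The number that was higher went from 0 to 1 in replicates 1 and 2 alone and to between 0 and 1 with 1 mouse left out. Of the 76 members, 46 kept the sign of their fold change in all settings. The 7 with an unadjusted p below 0.05 are among them, but they were picked by that p in the same data, so this is no separate support.

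With the replicate number as a block, 22 members were lower at an unadjusted p below 0.05, against 6.54% of all genes, and 0 were called. Deviations of same-numbered WT and BIT libraries correlated at 0.14, 0.026 and 0.33, and WT replicate 2 correlated more with BIT replicate 1, at 0.24. Since 1 pair lay below 0.1, the libraries were treated as sharing only a number. WT replicate 3 correlated at -0.30 and -0.11 with BIT replicates 1 and 2. BIT replicate 3 correlated at -0.205 and -0.22 with WT replicates 1 and 2. Deviations sum to 0 within a genotype, so these negative values follow in part from the 0.33 of the replicate 3 pair. Whether the libraries of replicate 3 form a batch was not tested. The nuclear to mitochondrial difference within pairs was 0.73 on the log2 scale. With complete pairs it equals the unpaired difference by arithmetic, so it is no separate check.

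The share of Atp5mc3 changed direction with 1 mouse left out, with differences between -1.20 and 0.34 percentage points, and those of Atp5mc1 and Atp5mc2 were between -1.27 and -0.29 and between 0.50 and 2.29. The nuclear to mitochondrial difference was between 0.36 and 1.07 with 1 mouse left out, 0.69 with members outside complex V and 0.82 without mt-Co1.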
